A study of Mus musculus with 48 samples.

Results

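Hepatic gene expression at the middle dose of dichloroacetic acid (DCA), 313 mg/kg-d, was compared with vehicle control in formalin-fixed paraffin-embedded (FFPE) liver. The libraries were chosen by the dose and preservation in the sample records, which gave 6 treated and 6 control libraries, 12 of the 48 TempO-Seq libraries in the series. All mice were males of the B6C3F1 hybrid strain, 4 weeks old. Treated animals, numbered 73 to 78, drank water with 2 g/L DCA for 6 days, and control animals, numbered 3 to 8, drank water with 0 g/L for the same time. Each animal gave 1 FFPE library and 1 library from frozen (FROZ) liver. Per the study's methods each liver sample was divided between the preservations. The FFPE samples were of the left lateral and right medial lobes, and the frozen samples of the left lateral caudate and right medial lobes. The paired libraries of an animal were thus of different pieces of tissue. Their input differed too, since FROZ libraries used RNA isolated earlier and FFPE libraries used lysates of deparaffinized sections, without RNA isolation. Preservation, input and lobe therefore cannot be told apart between FFPE and FROZ. TempO-Seq is a targeted method in which pairs of short probes are ligated on the RNA and the ligated product is sequenced. Values are log2(CPM + 1), where CPM is the count of a gene scaled to a common library total, and a difference of 1 is a doubling. Differentially expressed genes (DEGs) had a Benjamini-Hochberg false discovery rate (FDR) under 0.05 over all 6673 genes of the FFPE table and a fold change above 2, from limma fitted to the 24 FFPE libraries.

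DCA is a small chlorinated acid that inhibits the kinases of the pyruvate dehydrogenase complex and is itself broken down by the enzyme encoded by Gstz1. In rodent liver it is known as a weak activator of peroxisome proliferator-activated receptor alpha (PPARα), a nuclear receptor that binds fatty acids and, with its partner RXR, switches on genes for fatty acid uptake, transport and oxidation. Fatty acids are shortened by β-oxidation in peroxisomes and in mitochondria, and the Cyp4a enzymes oxidise the far end of the chain (ω-oxidation).

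At 313 mg/kg-d, 54 of 6673 genes (0.809%) were DEGs. Expression rose for 39 genes (0.584%) and fell for 15 (0.225%). The increases ran from 1.10 to 7.60 on the log2 scale with a median of 1.75, and the decreases had a median of -1.49. Increases above 3 log2 units were found for Cyp4a14, Cyp4a10, Ehhadh, Acot1, Aldh3a2 and Acaa1b, which act in fatty acid oxidation, and for Dbp, Serinc2, Scd1 and Retsat. The largest decreases were in Itga9, Adam23, Lpin1, Ppard and Serpina1e. For 33 of the 54 DEGs, 24 up and 9 down, the 6 treated values lay wholly outside the range of the 6 controls. Over the whole table this held for 105 genes (1.57%), 64 above (0.959%) and 41 below (0.614%). A further 18 genes had an FDR under 0.05 without a change of 2-fold, so that 51 genes (0.764%) were higher and 21 (0.315%) lower at that FDR alone. Over all genes the median change was -0.12, with 2905 genes higher and 3768 lower, and this median was -0.03 without animal 73, -0.02 at an offset of 10 CPM and 0.03 with the percent of genes at 0 as a covariate. Without animal 78, the treated animal whose induced genes lay closest to control, there were 102 DEGs, 59 up and 43 down, and these held all 54. Without animal 73 there were 38 DEGs, 29 up and 9 down.

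**Figure D1:**
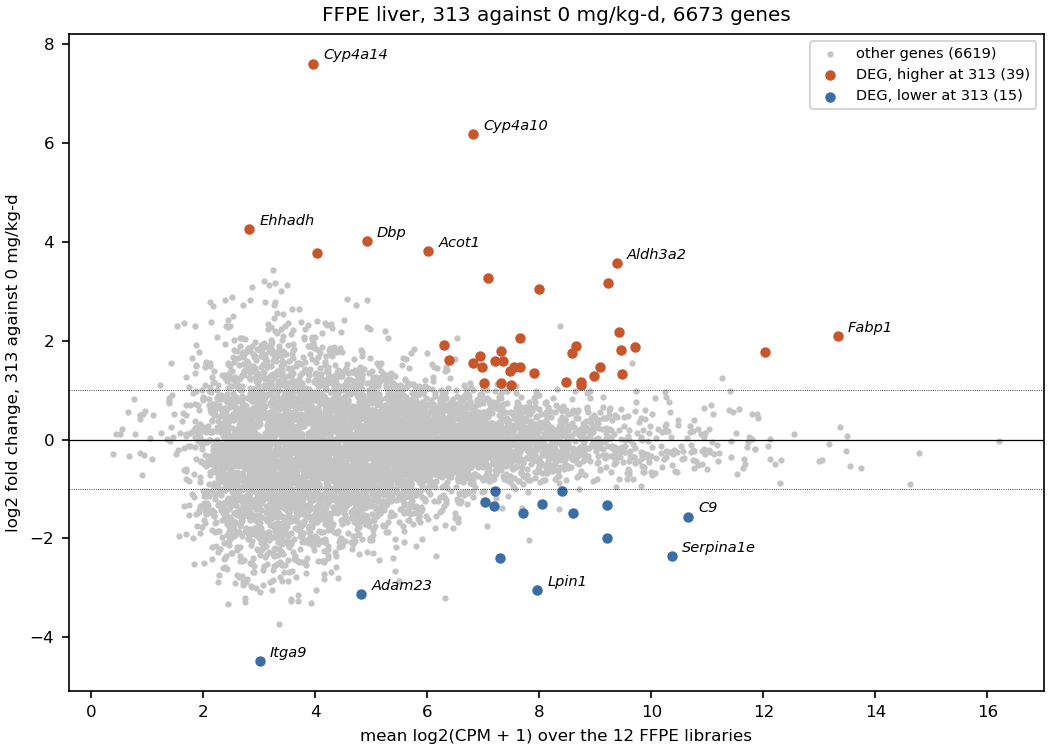
Change between 313 and 0 mg/kg-d in FFPE liver (vertical axis, log2 fold change) against the mean level over the 12 libraries (horizontal axis, log2(CPM + 1)), 1 point a gene. The 54 DEGs are coloured, 39 up and 15 down, and most of the 6673 genes scatter about the median of -0.12, widest at low levels.

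Treated libraries were shallower. Depth on listed genes, estimated from the step between low CPM values, was 4520000 to 5810000 reads in the controls and 3090000 to 4800000 reads at 313 mg/kg-d (exact permutation test, two-sided, p = 0.0130, n = 6 per group). Genes listed at 0 numbered 131 to 791 in controls and 163 to 1439 in treated libraries (p = 0.115, exact permutation test). The median correlation of a library with the others of its group was 0.783 for the median control library and 0.649 for the median treated one. No test is given for these medians, since libraries of a group share their correlations, and 74.0% of genes had a larger SD at 313 mg/kg-d than in controls. With the percent of genes at 0 as a covariate, 43 genes were DEGs, 33 up and 10 down. Cyp4a14 was at 7.88 in animal 73, the library with the most genes at 0, and at 6.21 in animal 78, the treated library with the fewest. Animal 78 also had the lowest Cyp4a14 value of the treated animals in FROZ, at 6.95. Whether depth bears on these levels was not tested.

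**Figure D2:**
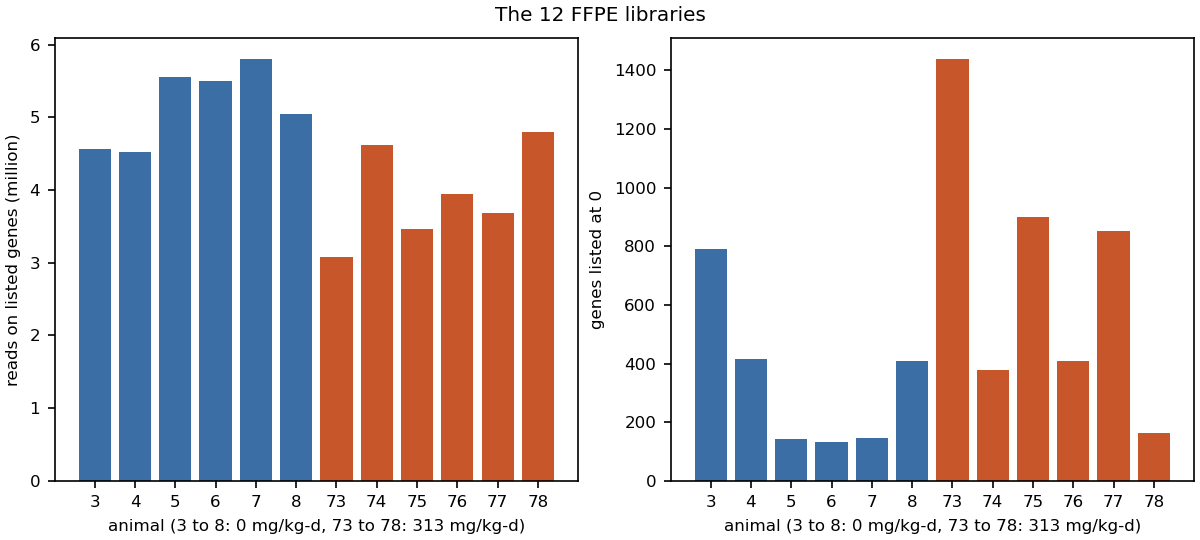
Estimated reads on listed genes (left) and genes listed at 0 (right) for each of the 12 FFPE libraries, 1 bar a library, named by animal. Controls (3 to 8) hold 4520000 to 5810000 reads and treated animals (73 to 78) 3090000 to 4800000 reads, and animal 73 has 1439 genes at 0.

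The tissue carried hepatocyte genes in all libraries. Of 13 hepatocyte markers, 11 were listed, and their summed level was 44389 to 59188 CPM in controls and 44095 to 51459 CPM at 313 mg/kg-d. Kupffer cell and macrophage markers (9 of 15 listed) summed to 367 to 624 CPM in controls and 343 to 525 CPM in treated livers, and the defining Clec4f and Adgre1 were not listed. The 9 listed endothelial markers of 14 gave 839 to 1292 and 745 to 1003 CPM, and 10 of 14 stellate cell and fibroblast markers gave 675 to 1167 and 798 to 1533 CPM. Blood markers (5 of 8) summed to 136 to 325 CPM in controls and 75.7 to 194 CPM in treated livers, and cholangiocyte markers (3 of 8) to 64.0 to 155 and 66.6 to 128 CPM. Of 14 lymphocyte and neutrophil markers only Ly6g was listed, at 0 to 68.2 and 0 to 46.3 CPM. The listed adipocyte and pancreas markers, 2 of 12, were Car3 and Pnlip. Their sum, 585 to 2274 CPM in controls and 1129 to 2756 CPM in treated livers, was mostly Car3, which hepatocytes also express. No gene of these 8 lists was a DEG, and the ranges of all 8 sums overlapped between the groups. In bulk tissue, fewer cells of a type and less RNA per cell cannot be told apart.

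The ω-oxidation genes Cyp4a14 and Cyp4a10 showed the largest increases of the table. Cyp4a14 (chr4:115486200-115496142, minus strand, GRCm38) was listed at 0.00, 0.29, 0.00, 0.00, 0.23 and 0.48 log2(CPM + 1) in controls 3 to 8, each at or under 3 reads. Treated animals 73 to 78 measured 7.88, 7.93, 8.28, 8.35, 7.94 and 6.21. The groups were far apart, and animal 78 was the lowest of the treated animals by a wide margin. The fitted change was 7.60 (SE 0.64, limma FDR = 2.39e-09, n = 6 per group), and against a floor of 3 reads in each control library the level was at least 137-fold higher. Cyp4a10 (chr4:115518264-115533649, plus strand) ran from 0.53 to 5.61 with a median of 4.71 in controls, and from 8.48 to 10.62 with a median of 10.09 in treated animals. Its change was 6.18 (SE 0.89, limma FDR = 3.12e-05), 72.6-fold on this scale. Of the 50-base windows of its transcripts, 29.8% also occur in other genes, chiefly Cyp4a32, so reads could be divided between these paralogs.

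Aldh3a2, a fatty aldehyde dehydrogenase that completes ω-oxidation, rose from 7.60 ± 0.56 to 11.17 ± 1.12 (SD, n = 6). All treated values, 9.28 to 12.31 with a median of 11.33, were above all controls, 6.50 to 7.95 with a median of 7.82, and the change was 3.57 (SE 0.37, limma FDR = 9.72e-08). These 3 genes were the DEGs among 12 listed members of the ω-oxidation list of 16, in which 7 members were higher and 5 lower with a median of 0.18, which was 0.02 without control 8 and 0.41 without animal 73. The male-biased Cyp4a12a and Cyp4a12b, with changes of -0.30 (FDR = 0.84) and -0.17 (FDR = 0.97), did not pass the test, nor did Cyp4a32 at 2.20 (FDR = 0.33).

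Acyl-CoA thioesterases release free fatty acids from coenzyme A. Acot1 (chr12:84009490-84018371, plus strand), the cytosolic member, ran from 2.66 to 6.14 with a median of 3.91 in controls and from 6.13 to 9.10 with a median of 8.11 at 313 mg/kg-d. Only animal 78, at 6.13, fell inside the control range, just under control 3 at 6.14. The change was 3.81 (SE 0.65, limma FDR = 0.000448), 14.0-fold. Acot1 shares 19.2% of its windows with other genes, chiefly Acot2, which the FFPE table does not list. It was the only DEG among the 5 thioesterases listed, of 13, whose median change was 0.35, or 0.21 without animal 75 and 0.72 without animal 73.

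**Figure D3:**
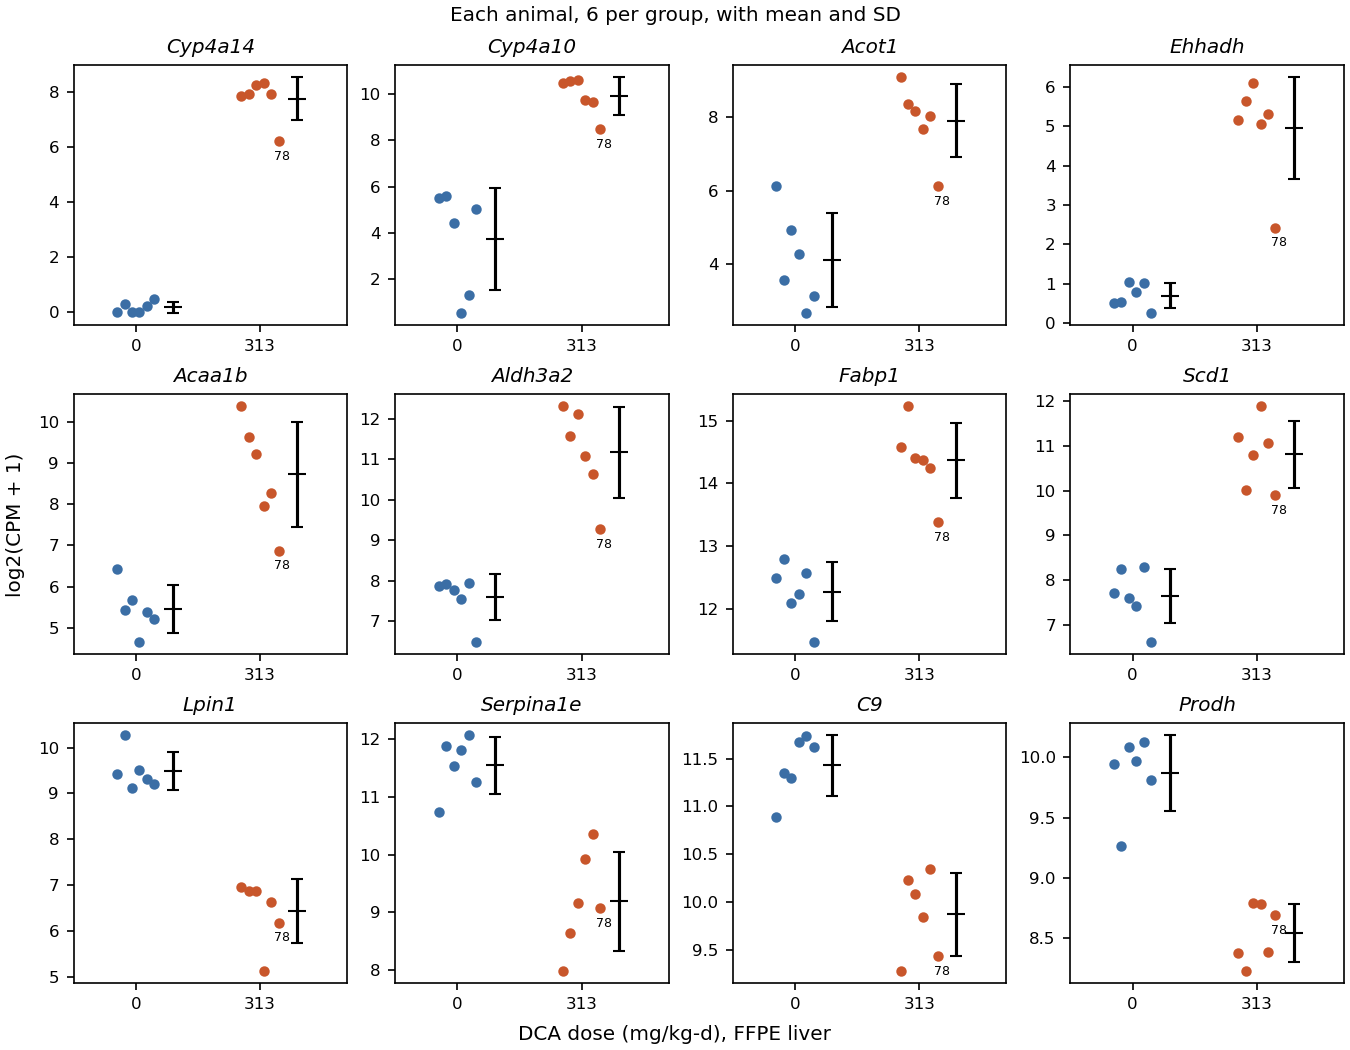
log2(CPM + 1) of 12 genes in each of the 12 FFPE animals, controls at left and 313 mg/kg-d at right of each panel, with the value of animal 78 marked and the mean and SD of each group as bars. In Cyp4a14 and Ehhadh animal 78 is the lowest treated animal, at 6.21 and 2.43, and is still above all 6 controls.

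The main enzymes of peroxisomal β-oxidation rose. Ehhadh, a bifunctional enzyme of the middle steps (chr16:21761287-21787807, minus strand), was near its detection limit in controls, at 0.26 to 1.06 with a median of 0.66. It reached 2.43 to 6.11 with a median of 5.24 in treated animals, a change of 4.26 (SE 0.71, limma FDR = 0.00032), with 3 of the 6 controls at or under 3 reads. The thiolases that close the cycle were both DEGs. Acaa1b moved from 5.46 ± 0.58 to 8.73 ± 1.27, a change of 3.27 (SE 0.44, FDR = 1.02e-05), and Acaa1a from 8.56 ± 0.25 to 10.36 ± 0.48, a change of 1.80 (SE 0.20, FDR = 2.68e-07). These paralogs share 30.5% of the Acaa1b windows. Of the 25 listed members of the list, which also holds the peroxin genes that build the organelle, 16 were higher, 9 were lower and the median was 0.78. Hsd17b4, the second bifunctional enzyme, at 0.98 (FDR = 0.0158), and Pex16 at 0.83 (FDR = 0.0394) rose by less than the 2-fold limit. Lonp2, the peroxisomal protease, rose by 1.10 (SE 0.22, FDR = 0.0032). It was in no list and was named after its values were seen.

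In mitochondrial β-oxidation 15 of 18 listed genes were higher, with a median of 0.91, and 2 were DEGs. Acadm, the medium-chain acyl-CoA dehydrogenase, rose by 1.16 (SE 0.21, FDR = 0.000953), and Decr1, a reductase needed for unsaturated fatty acids, by 1.39 (SE 0.31, FDR = 0.0146). Each overlapped the controls, with 5 and 4 of the 6 treated animals above all controls. Etfb, which passes electrons on to the respiratory chain, rose by 0.75 (FDR = 0.0136). The call for Decr1 was lost without animal 8, 73 or 76, at an FDR of up to 0.0557. Ketone body synthesis had 2 of 4 members listed, Bdh1 at -0.24 (FDR = 0.90) and Acat1 at 0.43 (FDR = 0.91), and neither passed the test.

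Genes of fatty acid uptake, binding and activation were higher in 14 of 17 cases, with a median of 0.70. Fabp1, the fatty acid binding protein of hepatocytes (chr6:71199827-71205023, plus strand), was already abundant at 11.48 to 12.81 with a median of 12.37 in controls, and reached 13.38 to 15.23 with a median of 14.39. The groups did not overlap, and the change was 2.09 (SE 0.24, limma FDR = 5.97e-07), 4.25-fold. Dbi, which binds acyl-CoA esters, rose by 1.46 (SE 0.23, FDR = 0.000194). Acsl1, which activates long-chain fatty acids, and Slc27a2, a transport protein with the same activity, rose by 0.70 (FDR = 0.0280) and 0.85 (FDR = 0.0032). Plin2, the coat protein of lipid droplets, rose by 1.47 (SE 0.34, FDR = 0.0170) and was the only DEG among 10 lipid droplet and lipolysis genes. Its call was lost without control 3 or 4 or animal 75 or 77 (FDR up to 0.0771).

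PPARα with RXR binds a DR1 element, a pair of half-sites spaced by 1 base. The letters AGGNCANAGGNCA were searched on both strands of the window from 250 bases before to 50 bases after each gene start, in RefSeq annotation of GRCm38.p6. Of 39 genes that rose, 30 had a window and 2 of them (6.67%) held the letters, as did 0 of 12 genes that fell, against 122 of 27025 genes (0.451%) in the whole promoter table and 0.407% of the FFPE genes with a window. A match is a description and not a binding site. The windows of Fabp1 and Apoc2 are shown because they were the only windows of DEGs with a match. Capitals mark the match, on the opposite strand from base -67 in Fabp1 (chr6:71199629-71199928, plus strand) and on the same strand from base -122 in Apoc2 (chr7:19677892-19678191, minus strand).
Fabp1: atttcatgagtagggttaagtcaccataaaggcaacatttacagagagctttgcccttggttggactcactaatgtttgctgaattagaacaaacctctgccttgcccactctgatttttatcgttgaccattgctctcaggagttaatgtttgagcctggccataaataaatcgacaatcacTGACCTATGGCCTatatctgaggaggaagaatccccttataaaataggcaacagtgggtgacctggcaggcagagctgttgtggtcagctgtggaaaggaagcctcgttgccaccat
Apoc2: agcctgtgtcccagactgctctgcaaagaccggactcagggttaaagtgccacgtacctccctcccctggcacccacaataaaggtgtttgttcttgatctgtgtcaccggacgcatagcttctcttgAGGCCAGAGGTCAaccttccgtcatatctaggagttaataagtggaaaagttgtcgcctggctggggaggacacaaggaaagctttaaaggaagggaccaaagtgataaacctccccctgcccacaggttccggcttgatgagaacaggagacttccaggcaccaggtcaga

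Apoc2, the activator of lipoprotein lipase, moved from 6.42 ± 0.48 to 8.00 ± 0.43 without overlap of the groups, a change of 1.58 (SE 0.26, limma FDR = 0.000281). Of its windows, 78.3% also lie in Gm44805, an annotated gene that runs through it, so reads could be divided between these names, and where the probe of each lies was not known here. Mttp, which loads lipid onto apolipoprotein B, rose by 1.16 (SE 0.27, FDR = 0.0239), and Scarb1, the HDL receptor, fell by 1.26 (SE 0.30, FDR = 0.0239). The calls were lost without 6 and 5 of the 12 libraries in turn, for Mttp controls 3, 5 and 8 and animals 75, 76 and 77, and for Scarb1 controls 3, 5 and 6 and animals 73 and 76 (FDR up to 0.0946 for each). The 21 apolipoprotein and lipoprotein assembly genes were split, 11 higher and 10 lower, with a median of 0.03, which was -0.09 without animal 73.

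Among 11 other PPARα target genes listed, of 28, Retsat and Ucp2 were DEGs and the median was 0.10, or 0.47 without animal 73. Retsat, a retinol saturase, rose from 5.80 to 6.76 in controls to 8.15 to 10.38 in treated animals, a change of 3.05 (SE 0.33, FDR = 2.33e-07). Ucp2, a mitochondrial carrier, rose by 1.54 (SE 0.39, FDR = 0.0421), and its call survived without control 3 or animal 78 only (FDR up to 0.127 without each of the other 10). Ppara itself was at -0.02 and Angptl4 at -0.61, and neither passed the test. Pdk4 and Vnn1 were not among the listed genes. Ppard, a second receptor of the family, fell from 8.13 to 8.88 in controls to 4.54 to 6.84 in treated animals, with medians of 8.50 and 6.23. The change was -2.39 (SE 0.37, FDR = 0.000118), and it was the only DEG among 16 nuclear receptors of liver metabolism.

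Fatty acid and triglyceride synthesis held DEGs in both directions. Scd1, the desaturase that makes monounsaturated fatty acids (chr19:44394455-44407879, minus strand), was 6.62 to 8.29 with a median of 7.65 in controls and 9.90 to 11.90 with a median of 10.93 in treated animals. Its change was 3.17 (SE 0.30, limma FDR = 3.11e-08). Me1, a source of NADPH for synthesis, rose by 1.59 (SE 0.36, FDR = 0.0170), a call lost without control 5, 6 or 8 or animal 75, 76 or 77 (FDR up to 0.0768), and Fads2, another desaturase, by 0.94 (FDR = 0.0460). Lpin1, a phosphatidate phosphatase of triglyceride synthesis that also acts as a coactivator of PPARα (chr12:16535669-16610966, minus strand), was 9.11 to 10.27 with a median of 9.38 in controls and 5.12 to 6.96 with a median of 6.74 in treated animals. All 6 treated values lay below all controls, with a change of -3.04 (SE 0.31, limma FDR = 8.77e-08), 8.24-fold lower. Elovl3, an elongase of very long chains, fell by 1.99 (SE 0.40, FDR = 0.0038), from 10.21 ± 0.33 to 8.22 ± 1.00. Of 23 listed members 14 were higher and 9 lower, with a median of 0.13 that moved to 0.06 without animal 77 and 0.31 without animal 73.

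Single genes of several detoxification families rose, with 1 DEG among 13 listed Ugt genes (8 higher, 5 lower) and 2 among 16 glutathione transferases (10 higher, 6 lower). Ephx1, the microsomal epoxide hydrolase, moved from 8.33 ± 0.33 to 10.52 ± 0.65, a change of 2.18 (SE 0.26, FDR = 7.68e-07). Gstt2 and Gstm3 are glutathione transferases. Gstt2 rose by 2.05 (SE 0.22, FDR = 1.41e-07) and Gstm3 by 1.33 (SE 0.21, FDR = 0.000114). Neither overlapped the controls. Ugt2b35, a glucuronosyltransferase, rose by 1.90 (SE 0.23, FDR = 1.78e-06), and Abcc3, a basolateral exporter of conjugates and bile acids, by 1.75 (SE 0.32, FDR = 0.00161). Of the 18 listed Nrf2 antioxidant genes 16 were higher with a median of 0.67, and Ephx1, Abcc3 and Gstm3 were DEGs. Cyp2a5 rose by 1.29 (SE 0.32, FDR = 0.0310) and was the only DEG among 25 genes of P450 families 1, 2 and 3, whose median was -0.16, or -0.29 without animal 76 and 0.06 without animal 74. It shares 37.0% of its windows, chiefly with Cyp2a4. Ces1g was the only DEG of 13 carboxylesterases, at 1.47 (SE 0.38, FDR = 0.0484). Leaving out single libraries took the call from Cyp2a5 in 7 cases (3, 5, 8, 73, 75, 76 and 77, FDR up to 0.124) and from Ces1g in 8 (3, 7, 8 and 73 to 77, FDR up to 0.154).

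Male-biased liver genes under growth hormone control were lower in 17 of 23 cases, with a median of -0.30, or -0.48 without animal 74. Serpina1e, Elovl3 and C9 were DEGs and Selenbp2, at -0.999 (FDR = 0.0233), missed the fold limit. Serpina1e, an α1-antitrypsin gene (chr12:103946931-103958975, minus strand), was 10.73 to 12.07 with a median of 11.67 in controls and 7.99 to 10.35 with a median of 9.12 in treated animals. The groups did not overlap, and the change was -2.35 (SE 0.37, limma FDR = 0.00016). It shares 34.6% of its windows with its paralogs, chiefly Serpina1d. The neighbouring family member Serpina1b fell by 0.91 (FDR = 0.0013), and 9 of 13 Serpina genes were lower. C9, the complement protein that completes the membrane attack complex (chr15:6445327-6498751, plus strand), ran from 10.89 to 11.74 with a median of 11.48 in controls and from 9.28 to 10.35 with a median of 9.97 in treated animals. Its change was -1.56 (SE 0.22, limma FDR = 3.12e-05), and 19 of 26 complement genes were lower with a median of -0.40 and no other DEG. Female-biased genes, 9 of 34 listed, were higher in 7 cases, and their DEGs were Cyp4a14, Cyp4a10 and Cyp2a5, of which the Cyp4a genes stand in the ω-oxidation list too.

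Itga9, an integrin subunit, and Adam23, a surface protein of the ADAM family, had the largest decreases, and both rested on treated libraries listed at 0. Itga9 was 6.52, 5.80, 5.03, 5.29, 4.51 and 4.34 in controls 3 to 8. In animals 73 to 78 it was 0.00, 2.90, 0.00, 0.00, 0.00 and 1.72, a fitted change of -4.48 (SE 0.86, FDR = 0.00255). Adam23 was 6.02 to 6.67 in controls, and 5.19, 0.00, 0.00, 3.37, 5.10 and 5.92 in animals 73 to 78, a fitted change of -3.12 (SE 0.73, FDR = 0.0210). The Adam23 call was lost without control 5 or 6 or animal 74 or 75 (FDR up to 0.0733). In the FROZ libraries of the same treated animals Itga9 ran from 4.10 to 4.50, against 4.44 to 4.73 in controls, and its change was -0.23 (SE 0.10, FDR = 0.0992). Adam23 in FROZ was 3.79 to 4.28 against 4.38 to 4.96, a change of -0.49 (SE 0.17, FDR = 0.0382).

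Prodh, the proline dehydrogenase of mitochondria, fell from 9.87 ± 0.32 to 8.54 ± 0.24 without overlap, a change of -1.33 (SE 0.18, FDR = 1.02e-05). It was the only DEG among 31 urea cycle and amino acid breakdown genes, of which 22 were lower with a median of -0.43. Dbp, a transcription factor of circadian output, was 4.28, 0.00, 2.21, 3.53, 3.21 and 4.22 in controls 3 to 8 and 5.68 to 7.82 in treated animals. Its change of 4.02 (SE 0.81, FDR = 0.00418) made it the only DEG among the 10 clock genes listed in FFPE. The other large FFPE changes of that list, Nr1d1 at 2.84 (FDR = 0.11) and Clock at -2.58 (FDR = 0.23), did not pass, and the list's median moved from -0.55 to -0.09 without animal 73. Of 16 clock genes listed in FROZ, 5 were DEGs up and 0 down. Dbp was among them, as were Nr1d2, Per3 and Bhlhe41, which the FFPE table does not list. All 19 genes of endoplasmic reticulum and amino acid stress were lower, with a median of -0.58, but only Herpud1, a degradation factor of that compartment, was a DEG, at -1.34 (SE 0.34, FDR = 0.0371). Its call was lost without any 1 of controls 3 to 7 or animals 73 and 74 (FDR up to 0.137).

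Most genes of the mitochondrial lists were higher. Of 64 respiratory chain and ATP synthase genes 51 were higher with a median of 0.39, and Cox6b1 at 1.61 (SE 0.37, FDR = 0.0193) and Uqcrfs1 at 1.10 (SE 0.24, FDR = 0.0114), subunits of complexes IV and III, were DEGs. Mitochondrial ribosomal proteins were higher in 37 of 51 cases with a median of 0.47 (0.29 without control 8) and 1 DEG, Mrps14 at 1.15 (SE 0.26, FDR = 0.0158). Cytosolic ribosomal proteins were lower in 46 of 59 cases with a median of -0.30 and no DEG, where 3768 of all 6673 genes were lower with a median of -0.12. In FROZ the median of this list had the other sign, at 0.18, beside 0.11 over all FROZ genes. The FROZ medians were 0.39 for respiratory chain and ATP synthase genes and 0.34 for mitochondrial ribosomal proteins. Rpl35 was at -0.60 (FDR = 0.0893). The Cox6b1 call was lost without control 5, 7 or 8 or animal 73, 76 or 77 (FDR up to 0.0695), and that of Mrps14 without control 7 or 8 or animal 77 (FDR up to 0.0559).

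**Figure D4:**
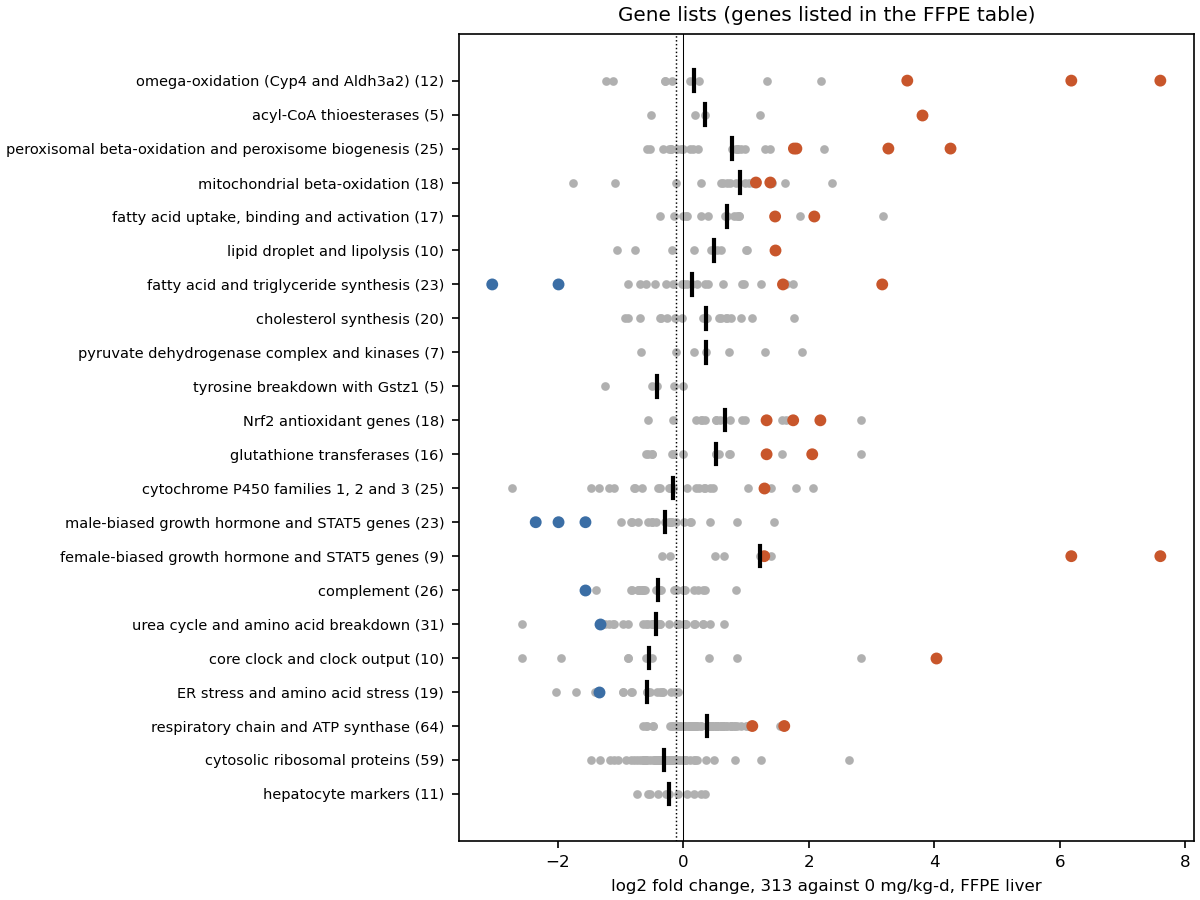
log2 fold change at 313 mg/kg-d in FFPE liver for the members of 22 gene lists, 1 point a gene, with DEGs coloured and the median of each list as a bar. Mitochondrial β-oxidation (median 0.91) and peroxisomal β-oxidation (0.78) lie to the right of the median of all genes (-0.12), and endoplasmic reticulum and amino acid stress (-0.58) to the left.

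Pathways tied to DCA by its chemistry showed no DEG in FFPE, nor did the cholesterol, glucose, cell division and p53 lists. In the pyruvate dehydrogenase complex 7 of 12 genes were listed, none of them a Pdk kinase, with a median of 0.36, which was 0.23 without animal 75 and 0.72 without animal 73. The most abundant, Pdp2, a phosphatase of the complex, and Dld, its shared dehydrogenase subunit, were at 0.36 (FDR = 0.89) and 0.73 (FDR = 0.49). Tyrosine breakdown, where Gstz1 acts, had 5 of 6 genes listed and a median of -0.41, with Fah at -0.41 (FDR = 0.35) and Hpd at -0.49 (FDR = 0.21). The cholesterol synthesis list (20 genes, median 0.36, or 0.15 without control 3) held Fdps, the farnesyl diphosphate synthase, at -0.37 (FDR = 0.51). Of 22 gluconeogenesis, glycolysis and glycogen genes (median -0.10, but 0.09 without animal 73, -0.30 without control 8 and 0.02 at an offset of 10 CPM) none was a DEG, and Pck1, which commits carbon to glucose, was at -0.69 (FDR = 0.46). DNA replication and cell division genes (14 of 34, median 0.74, or 0.36 without control 4 and 1.18 without control 3) included Ccnd1, cyclin D, at 1.75 (SE 0.54, FDR = 0.13), with 5 of 6 treated animals above all controls. Of 13 p53 targets (median 0.64) Bax, an apoptosis gene, was at 0.98 (FDR = 0.079). In FROZ, Ccnd1 at 1.77 (limma FDR = 4.27e-06) and Pck1 at -1.06 (limma FDR = 0.000461) were DEGs, while Pdp2, Dld, Fah, Hpd, Fdps and Bax were not. Of 32 cell division genes listed in FROZ, 8 were DEGs up and 1 down, beside 1.43% up and 0.887% down over all FROZ genes. The median SE over all genes of the table was 0.78, and at such an SE a change near 1 was often not detectable. The genes named here had smaller SEs in FFPE. These were 0.17 for Hpd, 0.18 for Fah, 0.21 for Fdps, 0.27 for Bax, 0.36 for Pck1, 0.40 for Dld, 0.54 for Ccnd1 and 0.65 for Pdp2.

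The remaining DEGs were in no list and are named because they passed the test. Hsd17b11, a lipid droplet dehydrogenase, rose by 1.87 (SE 0.23, FDR = 2.61e-06), and S100a10, a calcium-binding family protein, by 1.79 (SE 0.27, FDR = 7.73e-05). Paqr7 rose by 1.92 (FDR = 0.00275), Lrrc59 by 1.47 (FDR = 0.00321), Slc38a3, a glutamine transporter, by 1.35 (FDR = 0.000323), Txn1, thioredoxin, by 1.68 (FDR = 0.0246) and Cldn2, a claudin, by 1.13 (FDR = 0.0368). Serinc2 was 0.00, 5.21, 0.00, 1.18, 3.01 and 3.52 in controls and 4.96 to 7.15 in treated animals, a change of 3.76 (FDR = 0.0198). Decreases were found for Il1r1, the interleukin receptor (-1.49, FDR = 0.0246), Leng8 (-1.49, FDR = 0.0158) and Tsc22d3, a glucocorticoid-induced gene (-1.31, FDR = 0.0092). H2-T22 and H2-T9 each fell by 1.04, and their difference was constant at 1.19 to 1.20 over the 12 libraries, so they count the reads of 1 source under separate names. The calls of Txn1, Cldn2, Serinc2, Il1r1, Leng8, H2-T22 and H2-T9 were each lost without at least 1 library, with an FDR of up to 0.0819, 0.128, 0.0829, 0.0869, 0.0730, 0.112 and 0.0505. In all, 35 of the 54 DEGs kept an FDR under 0.05 when any single library was left out, and none changed sign.

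The 6 treated livers did not respond to the same extent. Animal 78 was nearest to the controls for 28 of the 39 genes that rose and for 6 of the 15 that fell. Its median distance from the control mean over the 39 genes was 0.99 log2 units, against 1.80 to 2.16 for the other 5 animals. In the FROZ libraries the same animal was nearest to the controls for 31 of the 39 genes, at 0.68 against 1.12 to 1.68. Its FFPE library was the deepest of the treated animals, at 4800000 reads, and the fewest genes at 0, 163. Across the 6 animals the FFPE and FROZ levels of Cyp4a10 moved together (Pearson r = 0.980, permutation p = 0.00556, adjusted over 3 genes 0.00833, Spearman rho = 0.943, permutation p = 0.0167, adjusted 0.0250) and stayed so without animals 75 and 78 (r = 0.949). For Acot1 r was 0.963 (permutation p = 0.00417, adjusted 0.00833) and rho 0.943 (permutation p = 0.0167, adjusted 0.0250), and r was 0.690 without animals 73 and 78. For Cyp4a14 r was 0.840 (permutation p = 0.128) and rho 0.0286 (permutation p = 1), and r was 0.0174 without animals 76 and 78, so any relation rested on those animals.

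None of the 39 genes that rose differed between the middle and the next dose at an FDR under 0.05. From 313 to 427 mg/kg-d, 18 genes (0.27%) were DEGs, 5 higher (0.0749%) and 13 lower (0.195%), and of the 54 DEGs of the middle dose these held only Serpina1e and C9. Cyp4a14 was higher by 1.17 (SE 0.64, FDR = 0.55), Cyp4a10 by 1.04 (SE 0.89, FDR = 0.72) and Acot1 by 1.41 (SE 0.65, FDR = 0.48), none of which passed the test. The 39 genes that rose had a median change against control of 0.53 at 198, 1.75 at 313 and 1.91 at 427 mg/kg-d, with the controls shared by the 3 values. Serpina1e was a further 2.92 lower at 427 than at 313 mg/kg-d (SE 0.37, FDR = 2.33e-05), and C9 a further 1.19 lower (SE 0.22, FDR = 0.006). The other genes that differed were named after their values were seen. Acute phase genes lower at 427 mg/kg-d were Saa1, at 11.89 ± 1.60 against 7.60 ± 1.32 (change -4.28, SE 0.80, FDR = 0.006), Saa2, at 9.52 ± 2.24 against 5.06 ± 1.58 (change -4.46, SE 1.00, FDR = 0.031), Apcs, at 8.13 ± 0.44 against 5.71 ± 0.25 (change -2.42, SE 0.31), and Hpx, at 10.83 ± 0.38 against 9.57 ± 0.28 (change -1.26, SE 0.21, FDR = 0.00103). Against control these 4 did not pass the test at 313 mg/kg-d, at 1.24 (FDR = 0.58), 2.29 (FDR = 0.36), 1.08 (FDR = 0.090) and 0.27 (FDR = 0.65). Lpin2, a relative of Lpin1, was 1.42 higher at 427 mg/kg-d (SE 0.19), and Cyp7b1, an oxysterol hydroxylase, 2.62 lower (SE 0.47, FDR = 0.005). With median-ratio scaling 3 genes were higher and 17 lower. The count was 38 without animal 78, 10 without animal 75 or 77, and 11 and 9 without the 427 mg/kg-d animals 99 and 102.

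FROZ libraries of the same animals had smaller errors. At 313 mg/kg-d 261 of 11275 FROZ genes (2.31%) were DEGs, 161 up (1.43%) and 100 down (0.887%), and with median-ratio scaling, which moved the median of all genes from 0.11 to near 0, 121 and 134. The median SE of a gene was 0.14 in FROZ and 0.78 in FFPE, each over its own genes, and 0.12 and 0.77 over the genes in both. The median SD among treated animals was 0.22 in FROZ and 1.13 in FFPE, each over its own genes. Over the 39 genes that rose in FFPE the median change was 1.75 in FFPE and 1.21 in FROZ, and over the 15 that fell it was -1.49 and -0.72, but these genes were chosen on their FFPE values. For Cyp4a14, Cyp4a10, Acot1 and Ehhadh the values lay close together. Cyp4a14 changed by 7.60 (SE 0.64) in FFPE and 7.98 (SE 0.35) in FROZ, Cyp4a10 by 6.18 (SE 0.89) and 6.54 (SE 0.41), Acot1 by 3.81 (SE 0.65) and 3.89 (SE 0.38) and Ehhadh by 4.26 (SE 0.71) and 4.25 (SE 0.31). The difference between preservations, with which input and lobe also differ, was tested on the FFPE minus FROZ value of each animal. It was -0.38 (SE 0.51) for Cyp4a14 and -0.08 (SE 0.68) for Acot1.

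**Figure D5:**
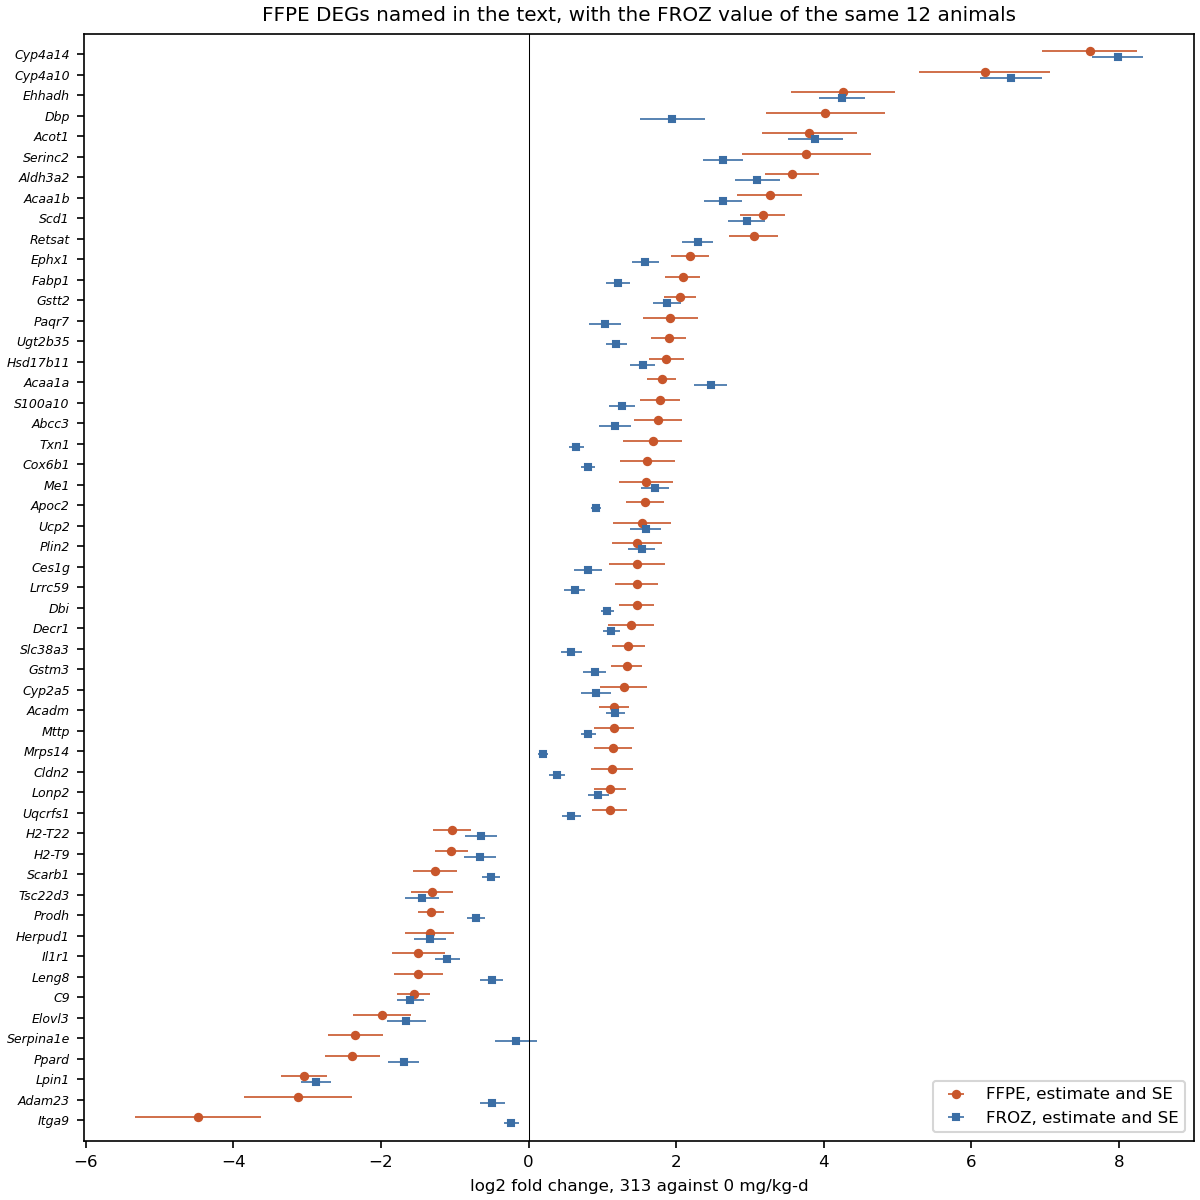
log2 fold change at 313 mg/kg-d (horizontal axis) of the FFPE DEGs named in the text, 1 row a gene, in FFPE (circles) and FROZ liver (squares) of the same 12 animals, with standard errors as bars. The markers lie apart for Itga9 (-4.48 in FFPE, -0.23 in FROZ), Serpina1e (-2.35 and -0.17) and Dbp (4.02 and 1.95), and close together for Ehhadh (4.26 and 4.25).

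No gene of the 6591 in both tables reached an FDR under 0.05 for this difference in limma (lowest FDR 0.0863, Itga9). With animal 74 or 78 left out, 1 gene passed. An unadjusted limma p under 0.05 was found for 487 genes, 366 of them lower in FFPE and 121 higher. By chance alone a share of 0.05 of the genes would have such a p. The median difference over all 6591 genes was -0.22, and -0.11 with median-ratio scaling, so these 2 counts are not set about a median of 0. Among DEGs, the difference had an unadjusted limma p under 0.05 for 14 of the 39 that rose and 6 of the 15 that fell. The DEGs were chosen on FFPE values that also enter this difference, and 31 and 13 of them had the larger change in FFPE. These counts are therefore no test of preservation, and no conclusion is drawn from them. The difference was -2.18 for Serpina1e (SE 0.47, FDR = 0.410), which was 12.28 to 13.06 in FROZ treated animals and 12.43 to 13.39 in FROZ controls, and 2.07 for Dbp (SE 0.73, FDR = 0.561). Fabp1 differed by 0.88 (SE 0.28, unadjusted p = 0.0042 in limma), having changed by 2.09 in FFPE and 1.21 in FROZ. Scd1, Lpin1 and C9 were close, at 2.96, -2.88 and -1.60 in FROZ. Genes that the FFPE table does not list but FROZ does included Acot2, with a FROZ change of 3.50 (SE 0.40), and Cyp4a31, a neighbour of Cyp4a10 and Cyp4a14, at 3.99 (SE 0.36).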

How the data were processed

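TempO-Seq libraries were grouped by the dose and preservation in the sample records, and the FFPE and FROZ libraries of an animal were paired by its number. Per the labels and the study's methods, the authors aligned reads to mm10 with STAR 2.6 in Partek Flow, estimated gene counts on RefSeq transcripts and removed low genes separately for each preservation. They scaled the counts to CPM and deposited log2 values with an offset of 1 CPM, and abundant probes were attenuated at the bench. These log2 values were tested as deposited with limma 3.58.1 in R 4.3.3, with a variance prior that followed the mean, and no count model was used because low values were whole reads (within 0.05 read) for only 85.2 to 95.5% of values in the 12 libraries compared (84.7% at the lowest over all FFPE libraries, 96.4 to 97.2% in FROZ). Depth was taken from the step between low values, and floors of 3 reads cover counting error only, since reads carry no molecular identifiers. The difference between preservations was fitted to the FFPE minus FROZ value of each animal, which is the same mouse by its number. Deviations of paired libraries from their group means correlated at -0.00431 to 0.196, above 0.1 for 12 of 24 animals.

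Genes were named by a rule: Cyp4a14, Cyp4a10 and Acot1, the 12 largest increases and 10 largest decreases without overlap, up to 4 further DEGs a list, and the 2 most abundant genes of a list without DEG. Members and lists were chosen with earlier results of these data known. Positions are from GENCODE vM21 on GRCm38 and promoter windows from RefSeq on GRCm38.p6. Shared sequence was counted over 50-base windows. Names that read as dates (11) were not used. Alternatives were other offsets, filter, scaling, variance prior, weights, covariate and samples. Scripts were tested on simulated data. Some genes of these lists are counted but not reported by name.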

Additional observations from a re-analysis of the deposited data

Results flagged for a closer look

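Of 114 groups of 6 samples looked at, 9 had 1 sample far from the other 5 by Dixon's ratio (above 0.625), where chance gives about 1 in 20, or 5.7. In treated animals, animal 78 was the lowest for Cyp4a14, at 6.21 log2(CPM + 1) with the nearest other at 7.88, and for Ehhadh, at 2.43 with the nearest at 5.06. Animal 77 was the lowest for Ppard, at 4.54 with the nearest at 6.04.

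Among controls, animal 8 was lowest for the ω-oxidation gene Aldh3a2, at 6.50 against 7.57, and for Gstm3, at 8.33 against 8.81. Control 4 was highest for Lpin1, at 10.27 against 9.52, and lowest for Prodh, at 9.26 against 9.82. Control 3 was lowest for Dbi, at 5.90 against 7.07, and its library had the lowest median correlation with its group, 0.705 against 0.764. Without control 3 there were 46 DEGs, and without controls 4 and 8 in turn 55 and 48.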

How the results depend on the processing

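The 54 DEGs of FFPE liver at 313 mg/kg-d kept their direction in every setting run, and the count stayed within 1.5 times except in those given here. A variance prior without trend left 35 DEGs, 28 up and 7 down, and leaving out each library gave 38 to 102 DEGs, 29 to 59 up and 9 to 43 down. The highest counts came without animal 78 and the lowest without animal 73. Leaving out controls 3 and animal 73 together, chosen after seeing the data, gave 37, 27 up and 10 down. An FDR under 0.05 was lost by 22 DEGs without trend, 13 with genes at 0 as covariate, 11 in the 12 libraries alone, and 6 each with array weights and an offset of 0.1 CPM. Rrm1 changed sign at an offset of 10 CPM (0.0204), with array weights (0.0019) and without single libraries (-0.41 to 0.41), as did Acat1 without single libraries (-0.28 to 1.19), and neither was a DEG.

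From 313 to 427 mg/kg-d the 18 DEGs became 5 without trend, 33 with array weights, 10 with the covariate, and 9 to 38 without single libraries. In FROZ, settings added after seeing the data gave 467 DEGs (297 up, 170 down) at an offset of 0.1 CPM and 110 (73 up, 37 down) at 10 CPM, against 261. The cause of these moves was not tested. For the pairing of FFPE and FROZ by animal, the fit with no replicate block gave 1 gene at an FDR under 0.05, an offset of 10 CPM gave 3, and leaving out single animals gave 0 to 1 (1 without animal 74 or 78), against 0. No paired analysis was possible between 0, 313 and 427 mg/kg-d within FFPE because the dose groups share no animal number. In FFPE a change near 1 was often within its error, and the part of depth in this was not tested.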

Other observations

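Several gene groups held no DEG at 313 mg/kg-d in FFPE liver. Coagulation and fibrinolysis genes (26 listed) had a median change of -0.31 (-0.18 without animal 74), and Fgg and Ambp, a fibrinogen chain and a plasma protein precursor, were at 0.44 (FDR = 0.41) and -0.42 (FDR = 0.36). The 17 acute phase genes spread from -2.08 to 2.83 with a median of 0.27 (0.03 without control 3), where Hp, haptoglobin, ran from 10.49 to 14.03 in treated animals and from 10.88 to 12.72 in controls. Insulin signalling and IGF binding genes (12) had a median of -0.34, which was -0.01 without animal 73. In this list Igfbp4 was lower in 6 of 6 treated animals than in any control, at 11.66 to 12.07 against 12.17 to 12.63, but did not pass the FDR (change -0.39, FDR = 0.24). Growth hormone signalling genes (8) had a median of -0.45 (-0.27 without animal 73), with Prlr at -0.21 (FDR = 0.90).

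Interferon-stimulated genes (21, median -0.13), heat shock proteins (15, -0.14), methionine cycle genes (17, 0.03), proteasome subunits (26, 0.11) and mitochondrial carriers of the Slc25 family (28, 0.21) had no DEG. Hspa9, a mitochondrial chaperone, reached an FDR of 0.0485 at a change of 0.97, under the fold limit, with 6 of 6 treated animals above all controls. Its call was lost without any 1 of 7 libraries (controls 3, 7 and 8, animals 73, 75, 76 and 77, FDR up to 0.133). Bile acid synthesis and transport genes (18, median -0.17) had 1 DEG, Abcc3, and pericentral Wnt targets (12, median -0.26) had Gstm3, both of which stand in the Nrf2 list as well. Without single libraries these medians ran from -0.34 to 0.00 for interferon-stimulated genes, -0.22 to 0.20 for heat shock proteins, -0.05 to 0.16 for methionine cycle genes, 0.00 to 0.20 for proteasome subunits, 0.10 to 0.30 for mitochondrial carriers, -0.22 to -0.03 for bile acid genes and -0.32 to -0.10 for pericentral targets.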
